A study of Drosophila melanogaster with 4 samples.

Results

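The genes described here are 10 Drosophila melanogaster genes, most of them little studied, that were picked because their signal was higher after gamma irradiation both without and with ecdysone: CG15784, JhI-26, CG10916, CG3609, CG3397, CG2909, CG11710, CG17834, kek1 and Wdr82. All probe sets that carry the platform's annotation for one of them were taken, which gave 11 of 13966 probe sets and 10 of 10844 named genes. CG17834 has 2 probe sets and each of the others has 1, and no probe set was shared between a member and another gene. The irradiation differences below are the values that chose the genes, so they are given as a description without a test. The label "raised by irradiation" describes 10 of the 11 probe sets, and kek1 and Wdr82 are better studied than the word little-studied implies.

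The cells were Kc167, an established embryo-derived female line, grown in serum-free medium. Each of 4 conditions was measured on 1 Affymetrix DrosGenome1 array, so there are no replicates, and the number of arrays limits precision. Control cells were incubated for 72 h without hormone and mock-treated. Ecdysone cells were given 10 µM muristerone A, a plant ecdysteroid that activates the ecdysone receptor, for the same 72 h and were then mock-treated. Irradiated cells had 72 h without hormone and then 280 Gy of gamma rays, and combined cells had muristerone A for 72 h and then the same dose. All 4 cultures rested for 90 min after the treatment before total RNA was taken. Per the scanner headers, wash modules 1 and 2 held the irradiated and combined arrays, which were also scanned before the others, and modules 3 and 4 held control and ecdysone, so irradiation cannot be told apart from module and scan order. Within each irradiation state the hormone-treated array came directly after its hormone-free partner in module and scan order. The ecdysone difference therefore cannot be told apart from that order either.

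Signals are units of the MAS5 algorithm on a linear scale, scaled to a common trimmed mean. Median signals lay between 114 and 125 units, and the median of all signals, 119.4 units, served as a floor below which levels were not ordered. Differences are log2 differences of floored signals, and "at least" is written before a fold where the lower of its signals did not exceed the floor. A pair is 2 arrays that differ in 1 treatment: irradiated against control is the pair without ecdysone, and combined against ecdysone the pair with it. The hemocyte markers Pxn, Hml, srp and ush were above the floor on all 4 arrays, while Col4a1 and vkg were above it on the ecdysone and combined arrays alone. NimC1 and crq averaged below the floor and He had no probe set of its own. Of the other markers, the 3 neuron and 3 germline genes with a probe set all averaged below the floor. The 3 muscle and 3 fat body genes with a probe set all averaged above it.

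Ionizing radiation breaks DNA and produces reactive oxygen species, and in fly cells it starts a transcriptional response in which the transcription factor p53 takes part. Enzymes that reduce carbonyls or handle oxidised compounds, ubiquitin ligases that mark proteins for degradation, and regulators of chromatin and of growth factor signalling are among the kinds of protein that stressed cells draw on. Ecdysteroids act through a nuclear receptor and change the programme of Kc167 cells over days, so the crossed design shows each gene's irradiation difference in 2 hormone states. For several of the genes here little more than a predicted protein family is known. A probe set reports RNA of the whole culture, so fewer cells expressing a gene and less RNA per cell cannot be told apart.

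On both irradiated arrays 10 of the 11 probe sets were higher than on both unirradiated arrays. This was also so for 16.6% of the 5981 probe sets with a mean above the floor. A size rule counted a probe set as higher where each pair was at least 2-fold up, and as lower where each was at least 2-fold down. That held for the same 10 probe sets, and 1.54% of the 13966 probe sets met it. The genes were chosen on this contrast, so nothing is read from these shares. The median difference of the 10 probe sets was 1.66 without and 2.12 with ecdysone, where all 5981 had a median of 0.00 in each pair. In rank of the mean difference among these 5981, the 10 lay between 2 and 89.

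**Figure D1:**
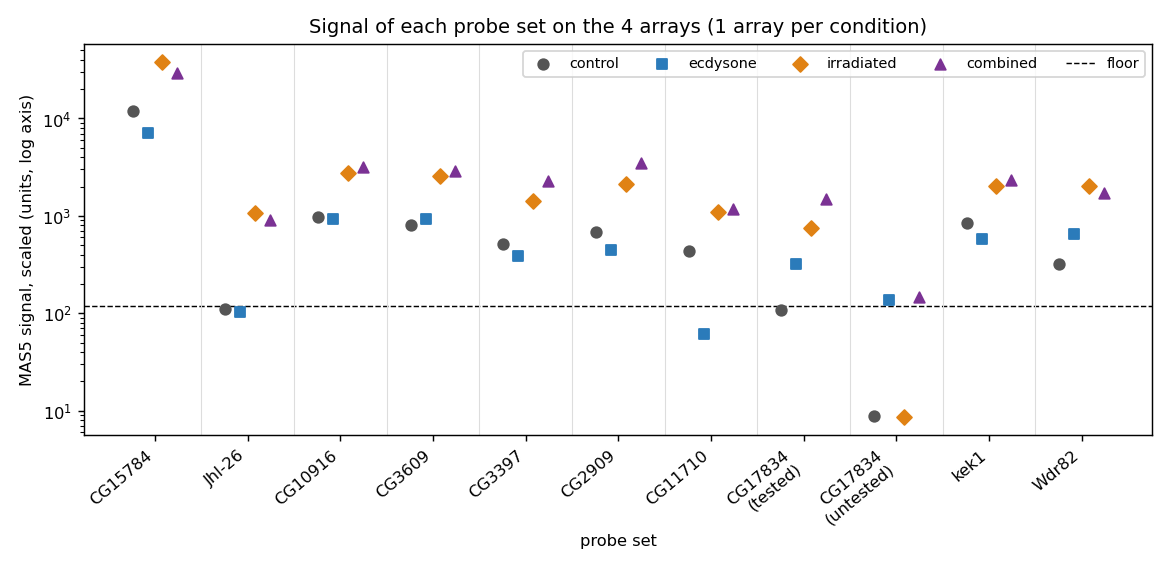
Scaled MAS5 signal (units, log axis) of the 11 probe sets on the 4 arrays (control, ecdysone, irradiated, combined), with a dashed line at the floor of 119.4 units. In 10 probe sets the irradiated and combined points lie above the control and ecdysone points, while the untested probe set of CG17834 is separated by hormone and lies close to or below the floor.

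Among the genes of predicted enzymes, JhI-26 had the largest difference. JhI-26 was named as inducible by juvenile hormone in cultured fly cells and belongs to a family of predicted kinases related to insect ecdysteroid kinases. Its signal was 109 (control) and 103 (ecdysone) without irradiation, and 1073 (irradiated) and 899 (combined) with it. Both unirradiated arrays were below the floor and both irradiated arrays were far above it. The difference was at least 8.99-fold without and at least 7.53-fold with ecdysone, and the mean of both ranked 2 among the 5981.

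CG3609 encodes a predicted dehydrogenase of the dihydrodiol dehydrogenase type. Its signal was 799 on the control array, 928 with ecdysone, 2558 with irradiation and 2912 with both. The 2 pairs gave nearly the same difference, 1.68 without and 1.65 with ecdysone, and the groups did not overlap.

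CG3397 encodes a predicted aldo-keto reductase, one of a family of enzymes that reduce aldehydes and ketones. Its signal was 511 in control and 387 in ecdysone cells, against 1421 in irradiated and 2285 in combined cells. The combined array was the highest and the ecdysone array the lowest, so the difference was 2.78-fold without and 5.90-fold with ecdysone.

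CG10916 encodes a predicted RING finger protein, a domain found in many ubiquitin ligases. Its signal was 971 (control) and 928 (ecdysone) without irradiation, and 2729 (irradiated) and 3204 (combined) with it. The unirradiated arrays lay close together and both irradiated arrays were well above them, by 1.49 without and 1.79 with ecdysone.

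kek1 encodes Kekkon 1, a transmembrane protein with leucine-rich repeats and an immunoglobulin domain that is known in the fly as a target and an inhibitor of the epidermal growth factor receptor EGFR. Its signal was 853 on the control array, 585 with ecdysone, 2049.9 with irradiation and 2329 with both. The difference was 1.27 without and 1.99 with ecdysone, the smallest of the 10 probe sets without ecdysone, and the groups did not overlap.

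Wdr82 encodes a WD40 repeat protein of the SET1 histone H3 methyltransferase complex, which also binds a nuclear phosphatase complex. Its signal was 321 in control and 655 in ecdysone cells, against 2021 in irradiated and 1697 in combined cells. Control was the lowest array and irradiated the highest. The difference was 6.29-fold without and 2.59-fold with ecdysone, the smallest of the 10 in the pair with ecdysone.

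The other 4 genes encode proteins for which no function is stated here. CG15784 had a signal of 12031 (control) and 7131 (ecdysone) without irradiation, and 38245 (irradiated) and 29178 (combined) with it. Both hormone-treated arrays were below their hormone-free counterparts, and the irradiation difference was 3.18-fold without and 4.09-fold with ecdysone.

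CG2909 had a signal of 675 on the control array, 443 with ecdysone, 2125 with irradiation and 3506 with both. The order of the unirradiated arrays was the opposite of that of the irradiated ones. Its irradiation difference was 3.15-fold without and 7.92-fold with ecdysone.

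CG11710 had a signal of 431 in control and 61.3 in ecdysone cells, against 1104 in irradiated and 1184 in combined cells. The ecdysone array was the single one below the floor, and both irradiated arrays were close to each other. The difference was 2.56-fold without and at least 9.92-fold with ecdysone.

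The 2 probe sets of CG17834 disagreed. The first, which was above the floor on average and could be tested, had a signal of 108 (control) and 324 (ecdysone) without irradiation, and 750.0 (irradiated) and 1502 (combined) with it. It was higher on both irradiated arrays, at least 6.28-fold without and 4.64-fold with ecdysone. The second averaged below the floor and was not tested, and had a signal of 8.79 on the control array, 137 with ecdysone, 8.50 with irradiation and 148.5 with both. Its irradiation difference was 0.00 without and 0.11 with ecdysone, so this probe set separated the arrays by hormone and not by irradiation. The annotation lists 6 protein isoforms for CG17834, the most of the 10 genes. Which transcripts each probe set matches was not analysed here.

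The irradiation difference was larger with ecdysone than without it for 6 of the 10 probe sets and smaller for 4. Among all 5981 it was larger for 50.1%. The split of the 10 was 7 to 3 with median scaling or a floor at the 60th percentile and 5 to 5 with quantile normalization. The median of the with-minus-without differences was 0.33, and 0.00 over all 5981. The pairs differed by at least 2-fold for 4 members: CG11710 (1.95 larger with ecdysone), CG2909 (1.33 larger), CG3397 (1.09 larger) and Wdr82 (-1.28, smaller with ecdysone). Over all tested probe sets 40.2% had pairs at least 2-fold apart, so a gap of this size between the 2 hormone states was common on these arrays. With 1 array per condition the difference between the hormone states could not be tested.

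**Figure D2:**
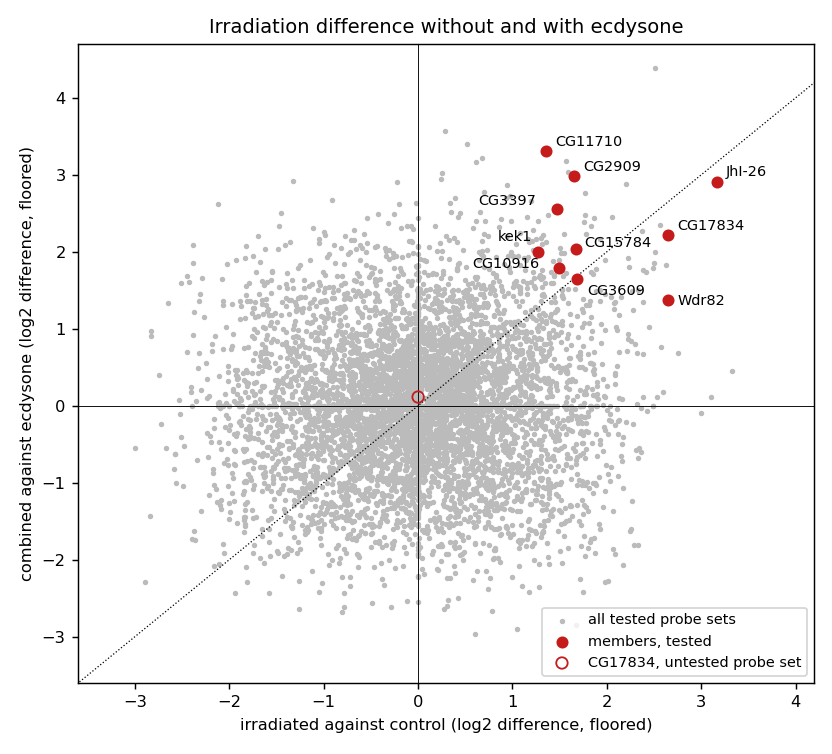
Log2 irradiation difference without ecdysone (horizontal axis) and with ecdysone (vertical axis) for the 5981 tested probe sets (grey), the 10 tested member probe sets (red) and the untested probe set of CG17834 (open circle), with a dotted line where both pairs are equal. Among the 10 members, JhI-26 has the largest difference without ecdysone, CG11710 (3.31) the largest with it, and Wdr82 lies furthest below the line.

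The ecdysone difference was not used to choose the genes and was tested with an additive model of both treatments (limma). None of the 10 probe sets tested passed an adjusted p of 0.05 in either direction, and adjusted p ranged from 0.364 to 0.978, where 1.99% of the 5981 passed. At an unadjusted p under 0.05 there were 3, in both directions, where 9.76% of the 5981 had such a p. They were CG15784 with a coefficient of -0.57 ± 0.25 (SE), CG11710 with -1.36 ± 0.61 (SE) and CG17834, at its tested probe set, with 1.29 ± 0.54 (SE). The 95% intervals of the others included 0 and reached from -1.53 to 1.19, so an ecdysone difference of up to 2-fold in either direction was within the interval of JhI-26, and the intervals of the remaining genes were narrower. The model has 1 residual degree of freedom, the disagreement between pairs, and borrows the rest of its spread from probe sets of similar signal, so its p-values do not measure the spread between cultures.

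The signs of the ecdysone difference agreed in both pairs for 3 of the 10 probe sets, and the share over all probe sets was not counted. CG15784 was lower with ecdysone in both, at -0.75 without and -0.39 with irradiation. CG3609 was at 0.22 and 0.19, the smallest gap between pairs. The tested probe set of CG17834 was at 1.44 and 1.00 and was the single member past the size rule for ecdysone, which 3.95% of the 13966 probe sets met. Its untested probe set was also higher with ecdysone in both pairs, by at least 0.20 and 0.32, since its hormone-free signals lay below the floor. JhI-26 was at the floor on both unirradiated arrays and at -0.26 in the irradiated pair.

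**Figure D3:**
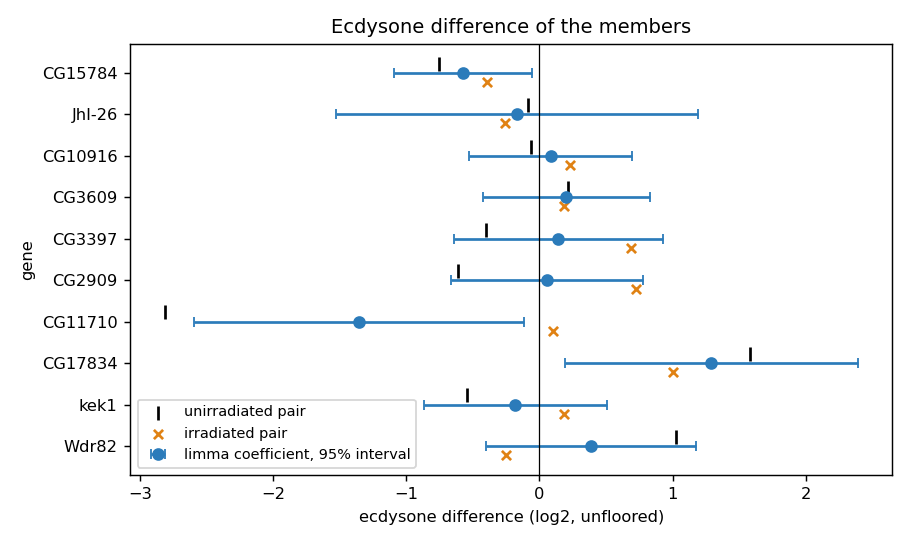
Log2 ecdysone difference of the 10 tested member probe sets on unfloored signals, with the limma coefficient and its 95% interval (blue), the unirradiated pair (black bar) and the irradiated pair (orange cross). The intervals of CG15784, CG11710 and CG17834 exclude 0 before adjustment, and CG11710 has the widest gap between its pairs.

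Aldo-keto reductase genes were examined around CG3397. Of 10 listed genes 7 had a probe set of their own and 5 could be tested. CG18547, also a predicted aldo-keto reductase, rose with irradiation, and none of the 5 fell. The limma threshold was passed upward by 0.468% and downward by 0.0167% of the 5981. The median irradiation difference of the 5 was 0.49, beside 0.00 over all probe sets tested. The remaining members were at 0.04 and -0.11 (CG2767), 0.42 and 0.33 (CG9436), 0.25 and 0.72 (CG10863), and 1.80 and -0.08 (CG12766), without and with ecdysone. The control signals of CG2767 and CG12766 were below the floor, so their differences without ecdysone are lower bounds. For CG9436, which has 2 probe sets, the brightest is given.

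In the annotation CG18547, CG12224 and CG3397 follow each other with no gene between them. CG18547 had a signal of 1133 in control and 654 in ecdysone cells, against 2194 in irradiated and 2521 in combined cells. It was higher on both irradiated arrays, by 0.95 without and 1.95 with ecdysone (limma coefficient 1.45 ± 0.33 SE, adjusted p = 0.0324). The call was lost with quantile normalization (adjusted p = 0.259), with a robust prior (0.0592), with a floor at the 60th percentile (0.161), without a floor (0.602) and without the intensity trend (0.8455), and the adjusted p was lowest with median scaling (0.00543).

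CG12224 had a signal of 789 (control) and 836 (ecdysone) without irradiation, and 1257 (irradiated) and 2409 (combined) with it. Its difference was 0.67 without and 1.53 with ecdysone and did not pass (limma adjusted p = 0.222). All 3 adjacent genes had their highest signal on the combined array. Whether their probe sets can bind each other's transcripts was not tested.

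Beyond CG3397, the nearest gene with a probe set was taken on each side of every member, which gave 20 genes, 2 of them overlapping a member in the annotation (CG5726 with CG10916, and CG13390 with Wdr82). None of the 20 met the size rule in either direction, which 2.84% of all probe sets did, and none of the 10 that could be tested passed limma. At an unadjusted limma p under 0.05 there was 1 of the 10, CG12224, where 6.87% of the 5981 had such a p. The median difference of these 10 was 0.23, from -0.95 for CG3597 beside CG3609 to 1.28 for Dgp-1 beside CG10916. The overlapping genes CG5726 and CG13390 had mean differences of 0.32 and -0.48, and the 2 pairs of each had opposite signs. CG3597, Dgp-1, CG5726 and CG13390 each had a signal below the floor, so their mean differences rest on floored values.

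EGFR signalling genes were listed around kek1. Of 24, 17 had a probe set and 11 were tested, and with irradiation none rose or fell by limma and none had an unadjusted p under 0.05. The median irradiation difference was -0.27, beside 0.00 over all tested. Of the other kekkon genes that were tested, kek2 was at 0.49 and -0.50, kek3 at -1.39 and 0.62, kek4 at 0.46 and -0.99, and kek6 at 0.13 and 0.06. None of these 4 was at least 2-fold higher in either pair. Below the floor were the control and combined signals of kek2, the ecdysone and irradiated signals of kek3 and the ecdysone signal of kek6. Differences that use them are bounds. For kek3, kek4 and Egfr, which have 2 probe sets each, the brightest is given. The gene kek5 was below the floor on all 4 arrays and was not tested. The ligand gene spi was at -0.71 and -0.44 and the receptor gene Egfr at -0.57 and 0.92. The irradiated signal of Egfr was below the floor, so its difference without ecdysone is a bound. With ecdysone sty, the gene of Sprouty, an inhibitor of receptor tyrosine kinase signalling, fell by 1.10 without and by 2.09 with irradiation (limma adjusted p = 0.00345), where 0.552% of the 5981 passed downward. That call was lost without a floor (adjusted p = 0.126) and without the trend (0.716), and was lowest with median scaling (0.00108).

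The list around Wdr82 held the SET1 complex, other partners of Wdr82, and the histone-modifying genes trx, Utx and trr, which are not counted as its partners. In this list 11 of 12 genes had a probe set and 6 were tested, of which none rose or fell by limma with either treatment. At an unadjusted p under 0.05 there was 1 of 6 for irradiation and 0 of 6 for ecdysone, where 6.87% and 9.76% of the 5981 had such a p. The 1 was trr, the gene of a Trithorax-related histone methyltransferase, at -1.83 and -1.56 with both irradiated signals below the floor. The median irradiation difference of the 6, trx and trr included, was -0.45. Cfp1, the CXXC zinc finger subunit of the SET1 complex, was at -0.47 and 0.54, the shared subunit Rbbp5 at -1.23 and -0.62, and Dpy-30L1, another shared subunit, at -1.78 and -0.39. The combined signal of Rbbp5 and the irradiated signal of Dpy-30L1 were below the floor, so the differences that use them are bounds. Of juvenile hormone genes 7 of 11 had a probe set and 3 were tested, with none that passed limma, or had an unadjusted p under 0.05, for either treatment. JhI-21 was at -0.23 and 0.00, the receptor gene gce at 1.23 and 1.28, and the epoxide hydrolase gene Jheh2 at 0.49 and 0.28. Both unirradiated signals of gce were below the floor, so its differences are lower bounds. The brightest of its 2 probe sets is given. For JhI-21 both signals of the pair with ecdysone were below the floor.

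Radiation response genes had 15 of 18 with a probe set and 10 tested, of which none passed limma for irradiation or for ecdysone, with 5 of 10 and 0 of 10 at an unadjusted p under 0.05, where 6.87% and 9.76% of the 5981 had such a p. Xrp1, hid and rpr had no probe set of their own. The 5 for irradiation were p53, Gadd45, rad50 (1.38 and 2.47), mre11 (0.70 and 1.33) and RnrL (0.71 and 2.40). The ecdysone signal of RnrL was below the floor, so its difference with ecdysone is a lower bound. The median irradiation difference of the 10 was 1.04, the largest of the 5 lists, with 0.70 without and 1.49 with ecdysone. The transcription factor gene p53 was at 1.76 and 1.07, and Gadd45, a stress response gene, at 0.25 and 3.03 with an adjusted p of 0.0715, which passed with a floor at the 25th percentile (0.00521) and with median scaling (0.00406) and was at most 0.8455. Over the 35 genes tested in the 5 lists, 1 passed for irradiation and 1 for ecdysone.

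Unfloored signals of marker genes of other tissues were summed on the same arrays. The 3 muscle markers with a probe set had a summed signal of 455 to 512 on unirradiated and 914 to 963 on irradiated arrays, with 0 of 3 past limma and 1 at an unadjusted p under 0.05. That 1 was sls (1.54 and 1.98), whose unirradiated signals were below the floor and whose other 3 probe sets had mean differences of 0.00 to 0.06. The third muscle marker, up, was also higher in both pairs (1.62 and 0.79). Its unirradiated signals were below the floor, so these are lower bounds, and the brightest of its 2 probe sets is given. Mf was lower in both pairs, at -0.82 and -0.27. The 3 fat body markers had 961 to 1128 and 743 to 746, with 0 of 3 past limma and 2 at an unadjusted p under 0.05. Those 2 lay in opposite directions, Lsp2 at -1.94 and -2.44 and Fbp1 at 2.04 and 1.42. The third, Yp1, was at -1.31 and -0.91. The combined signal of Lsp2, the control signal of Fbp1 and the irradiated signal of Yp1 were below the floor. The differences that use them are bounds. Of the 5981 probe sets, 6.87% had an unadjusted limma p under 0.05 for irradiation. Neuron markers summed to 333 (control), 223 (ecdysone), 423 (irradiated) and 252 (combined). Germline markers summed to 127, 82.9, 510 and 104 in the same order. All of these neuron and germline genes averaged below the floor, so no difference is read from these sums. In both lists the highest sum was on the irradiated array alone. The part of the marker signals in the members' differences was not tested.

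**Figure D4:**
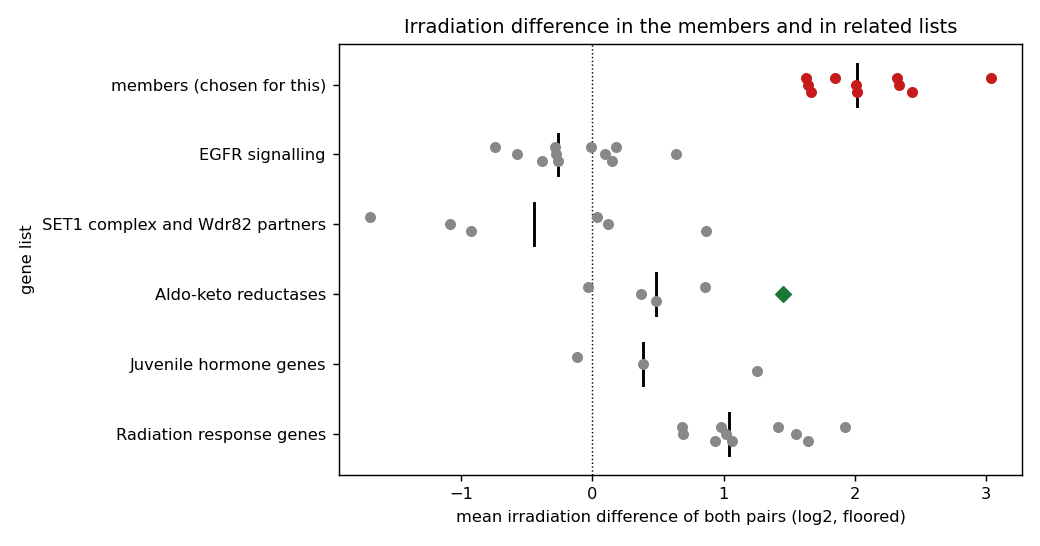
Mean irradiation difference of both pairs (log2, floored) of the tested members (red) and of the tested genes in the 5 related lists (grey), with the median of each list as a black bar, the median of all tested probe sets as a dotted line, and the 1 gene past limma, CG18547, as a green diamond. The members were chosen for this measure. The list medians run from -0.45 for the list around Wdr82 and the SET1 complex to 1.04 for the radiation response genes.

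The pattern over the 4 arrays was compared between the members and 4957 other genes by the Euclidean distance of centred log2 signals from the members' median profile. This profile stood at -0.83 on the control array, -1.15 with ecdysone, 0.77 with irradiation and 1.08 with both. The nearest genes were EMC3, a subunit of the membrane protein insertion complex of the endoplasmic reticulum (0.24), the double-strand break repair gene rad50 (0.26), the titin-like muscle gene sls (0.29), CG46301 (0.31) and CG6928 (0.32). The median distance of the candidates was 2.20, and the members themselves lay between 0.30 (CG3397) and 1.43 (CG17834) from their own median.

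rad50 had a signal of 216 in control and 156 in ecdysone cells, against 562 in irradiated and 866 in combined cells, all above the floor. EMC3 and CG6928 were below the floor on 1 array each, and sls and CG46301 on 2 each. The other 3 probe sets of sls had mean differences of 0.00, 0.00 and 0.06 and lay at or below the floor on at least 3 arrays. A likeness over 4 arrays with 1 value each is a description of these arrays.

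**Figure D5:**
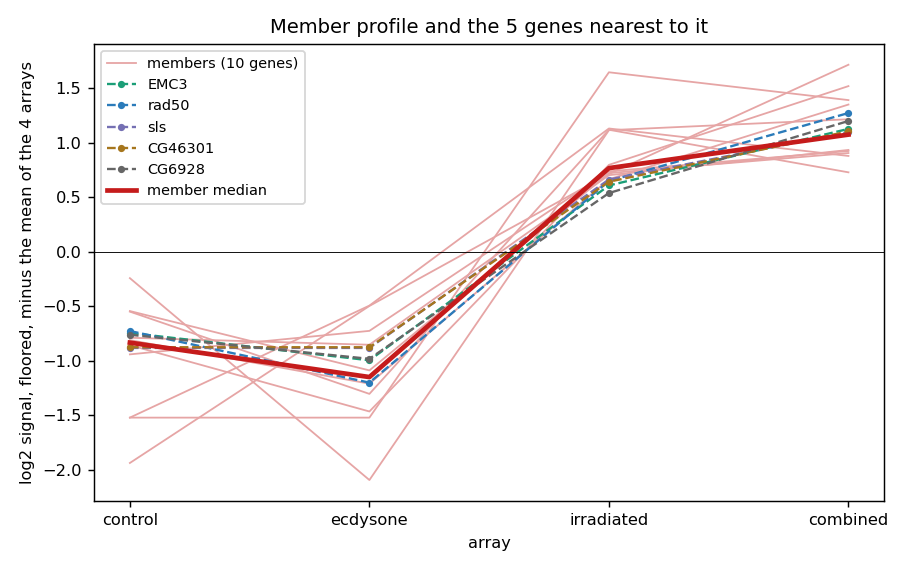
Log2 signal, floored and centred on the mean of the 4 arrays, of the 10 members (pale red, brightest probe set of each gene), their median (thick red) and the 5 nearest other genes (dashed). The members spread most on the control and ecdysone arrays, where JhI-26, CG11710, CG17834 and Wdr82 run apart from the median.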

How the data were processed

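Total RNA of 4 Kc167 cultures was hybridized to 4 arrays of 1 chip lot, scanned on 1 day per the file headers. The deposited table holds MAS5 intensity values on a linear scale, made by the authors per the submitters' processing notes, which state no MAS5 version. Of 14010 probe sets, 44 controls were left out. Each array was scaled to a common trimmed mean (2% at each end), changing no array by more than 0.0667%. The Release 6 plus ISO1 MT annotation gave current names for 12394 of 12443 probe sets with 1 symbol and the order of neighbouring genes.

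Signals were floored at the median before log2 differences were taken. The additive model was fitted with limma 3.58.1 in R 4.3.3 (intensity trend, Benjamini-Hochberg) to unfloored signals of probe sets with a mean above the floor, and was tested on simulated data. Tables used Python 3.11.15, numpy 2.4.6 and pandas 2.3.3. A gene in a list was represented by its brightest probe set. The named genes were all members, list genes past limma with up to 4 more in list order, the 5 nearest patterns and the genome neighbours. CG12224, Gadd45, kek2, kek3, kek4, kek5, kek6, trr, Lsp2, Fbp1, Yp1, Mf, up, rad50, mre11 and RnrL were singled out after their values were seen. Members and lists were chosen with earlier results of these data known. Sequences and promoter motifs were not analysed here.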

Additional observations from a re-analysis of the deposited data

Results flagged for a closer look

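For 6 member probe sets the ecdysone difference had opposite signs in the unirradiated and the irradiated pair, with 1 array on each side, and the difference was not tested. Over all 5981 tested probe sets 40.2% had pairs at least 2-fold apart, and the share with opposite signs was not counted. The gap, irradiated pair minus unirradiated pair, was 1.95 for CG11710 (-1.85 and 0.10), 1.33 for CG2909 (-0.61 and 0.72), 1.09 for CG3397 (-0.40 and 0.69), 0.73 for kek1 (-0.54 and 0.18) and 0.30 for CG10916 (-0.06 and 0.23). Wdr82 ran the other way, at -1.28 (1.03 and -0.25). For CG11710 the ecdysone array was below the floor, so its gap depends on where the floor lies and ran from 1.42 to 2.91 over the floors and scalings tried. The sign of 3 gaps turned with a setting: CG10916 was at -0.01 with quantile normalization, CG3609 at -0.03 as reported and 0.08 with median scaling, and the tested probe set of CG17834 at -0.44 as reported and 0.09 with a floor at the 60th percentile.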

How the results depend on the processing

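The count of 10 probe sets higher after irradiation was the same under 3 other scalings, 3 other floors and a fold threshold of 1.5, and was 5 at a threshold of 3. Averaging the probe sets of a gene kept 10 genes and brought CG17834 to 1.24. The count past the size rule for ecdysone moved from 1 to 0 with quantile normalization, a floor at the 60th percentile and a threshold of 3, and to 2 with a floor at the 25th percentile or none, the addition being the untested probe set of CG17834, whose unfloored mean was 4.05. No member passed limma for ecdysone under any of 9 settings, and the smallest adjusted p was 0.116. In the lists, genes past limma for irradiation numbered 0 without the trend, with a robust prior, with quantile normalization, with a floor at the 60th percentile and with no floor, and 2 with a floor at the 25th percentile and with median scaling. For ecdysone they numbered 0 without the trend and with no floor. Median scaling, the deposited values, the 60th percentile and no floor were chosen for the lists after seeing the data. Over all probe sets limma called 29 for irradiation and 119 for ecdysone, against 47 and 132 with median scaling, 6 and 85 with quantile normalization, 6 and 75 with a floor at the 60th percentile, 4 and 56 with none, and 0 and 0 without the trend, where 303 and 418 had an unadjusted p under 0.05. Median scaling raised differences of the pair with ecdysone by 0.14 where both signals exceeded the floor, and by less where one did not. The median gap between the hormone states ran from 0.18 to 0.43 over the scalings. The cause of these changes was not tested. No paired analysis was possible because each condition has 1 array and the labels give no replicate numbers to block on; the additive model already holds the other treatment as a term. Signals at the floor limit JhI-26, CG11710 and CG17834.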
